A study of Homo sapiens with 6 samples.

Results

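The 10 transcripts described here encode stress-responsive transcription factors of the basic leucine zipper (bZIP) class: DDIT3, ATF3, ATF4, ATF5, ATF6, XBP1, CEBPB, CEBPG, NFIL3 and CREB3L2. They were selected by gene symbol from the 18780 genes of the deposited table, and all 10 were found. Each was above the minimum of a mean of 1 TPM (transcript abundance scaled by length and by the library's total) and none was listed at 0 in any library. The samples were libraries of PC-3 cells, an established human prostate cancer line. For 3 of them the cells were treated with trans-Gnetin H (TGH, a resveratrol trimer) at 2.5 µM for 24 h. For the other 3 the cells were given the solvent DMSO, also for 24 h. All were grown in the same serum-containing medium, and the labels do not say whether replicates came from separate cultures, so p-values measure the spread between these libraries. By its title the study asks how the compound deprives such cells of glucose.

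bZIP factors bind DNA as dimers, held together by a leucine zipper, and their partners set which sites they read. Several carry the response of a cell to unfolded protein in the endoplasmic reticulum (ER) and to lack of nutrients. When kinases such as PERK phosphorylate the initiation factor eIF2α, general translation falls while ATF4 mRNA is translated more, and ATF4 then transcribes genes of amino acid supply together with DDIT3, ATF3 and CEBPB. In the other branches of the unfolded protein response, the sensor IRE1 splices XBP1 mRNA into the form that encodes an active factor, and ATF6 leaves the ER to be cut by Golgi proteases. Values per gene symbol measure the mRNA and do not show splicing of XBP1, cleavage of ATF6 or CREB3L2, or translation of ATF4 and ATF5.

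Promoter sequence is shown for 4 of the members whose mRNA was higher with TGH: DDIT3, which moved most, and XBP1, CEBPG and CREB3L2 as examples of the longer motifs. These windows hold the letters that bZIP factors of the unfolded protein response, or the CCAAT-binding factor that works with them, are known to read. RefSeq windows from 250 bases before to 50 after a start site (build GRCh38.p14) were matched by symbol for all 10 members, 20 windows in all, since a gene can have several starts. Each run below covers the bases from 200 to 31 before a start site, 5′ to 3′ on the gene's strand, with motif matches in capitals. The first start listed was used unless another held more matches of the longer motifs. The CEBPG run was chosen in this way from its 2 starts, because it holds such a match. The stretch of DDIT3 is chr12:57520545-57520714 on the minus strand, that of XBP1 chr22:28800600-28800769 on the minus strand, that of CEBPG chr19:33373913-33374082 on the plus strand and that of CREB3L2 chr7:138002117-138002286 on the minus strand.
DDIT3: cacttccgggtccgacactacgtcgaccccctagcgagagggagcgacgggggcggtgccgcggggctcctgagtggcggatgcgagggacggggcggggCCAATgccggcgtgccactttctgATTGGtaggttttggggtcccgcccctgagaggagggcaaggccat
XBP1: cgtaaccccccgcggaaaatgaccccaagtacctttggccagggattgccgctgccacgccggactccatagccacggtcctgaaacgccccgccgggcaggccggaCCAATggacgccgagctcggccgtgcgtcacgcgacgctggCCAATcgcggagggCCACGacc
CEBPG: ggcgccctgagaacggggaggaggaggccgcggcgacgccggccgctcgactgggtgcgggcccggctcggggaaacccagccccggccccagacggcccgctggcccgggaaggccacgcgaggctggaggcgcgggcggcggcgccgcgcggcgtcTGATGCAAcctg
CREB3L2: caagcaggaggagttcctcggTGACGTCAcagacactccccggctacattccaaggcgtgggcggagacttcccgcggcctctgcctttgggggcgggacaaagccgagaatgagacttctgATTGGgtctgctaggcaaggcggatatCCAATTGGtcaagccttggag

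The motifs, searched on both strands, were the cyclic AMP response element TGACGTCA, the unfolded protein response element TGACGTGG, the C/EBP-ATF response element TGATGNAA, the CCAAT box, and the ER stress response element, in which CCAAT and CCACG stand 9 bases apart and which therefore contains a CCAAT box. The XBP1 run holds the ER stress response element, beginning 52 bases before the start, which 0.0769% of all 35116 RefSeq windows hold, and a second CCAAT box at 93 bases. The CEBPG run holds the C/EBP-ATF response element at 42 bases, found in 3.62% of windows, and windows of ATF3 and CREB3L2 also had a match, that of CREB3L2 at its other start. The CREB3L2 run holds the cyclic AMP response element at 179 bases, found in 1.85% of windows, and 3 CCAAT boxes, of which the last pair overlap. The DDIT3 run holds 2 CCAAT boxes facing opposite ways, at 100 and 76 bases. The letters CCACT, which differ from CCACG in the last letter, follow the box at 100 bases after 9 bases. Only exact matches were searched for, so this stretch was not counted as an ER stress response element. The CCAAT box is common, present in 34.6% of all windows. It was in 9 of the 20 windows of members, from 7 genes that include ATF3, CEBPB and NFIL3. The unfolded protein response element, present in 0.729% of windows, was in 0 of the 20 windows of members. No window of ATF4, ATF5 or ATF6 held any of these letters, which says nothing of sites elsewhere.

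With TGH, 9 of the 10 transcripts rose and 1, ATF5, fell. A rise or fall is called here at an adjusted p under 0.05 from limma, a linear model across genes, on the deposited log2(TPM + 1) values with Benjamini-Hochberg adjustment over all 12018 genes at or above the minimum. By that rule 55.2% of those genes were called, 28.9% higher and 26.3% lower, so a call alone is common in this comparison. In all 10 transcripts the 3 TGH libraries lay wholly above or wholly below the 3 DMSO libraries, which held for 33.6% of genes in the higher direction and 30.8% in the lower. The members' median difference was 0.57 on the log2 scale, against 0.02 for all genes tested, and 6 of the 10 differed by at least 0.5 in the upward direction, as 965 of the 12018 genes did. An exact two-sided permutation test of each transcript alone gave p = 0.1, the smallest that 3 libraries against 3 allow.

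**Figure D1:**
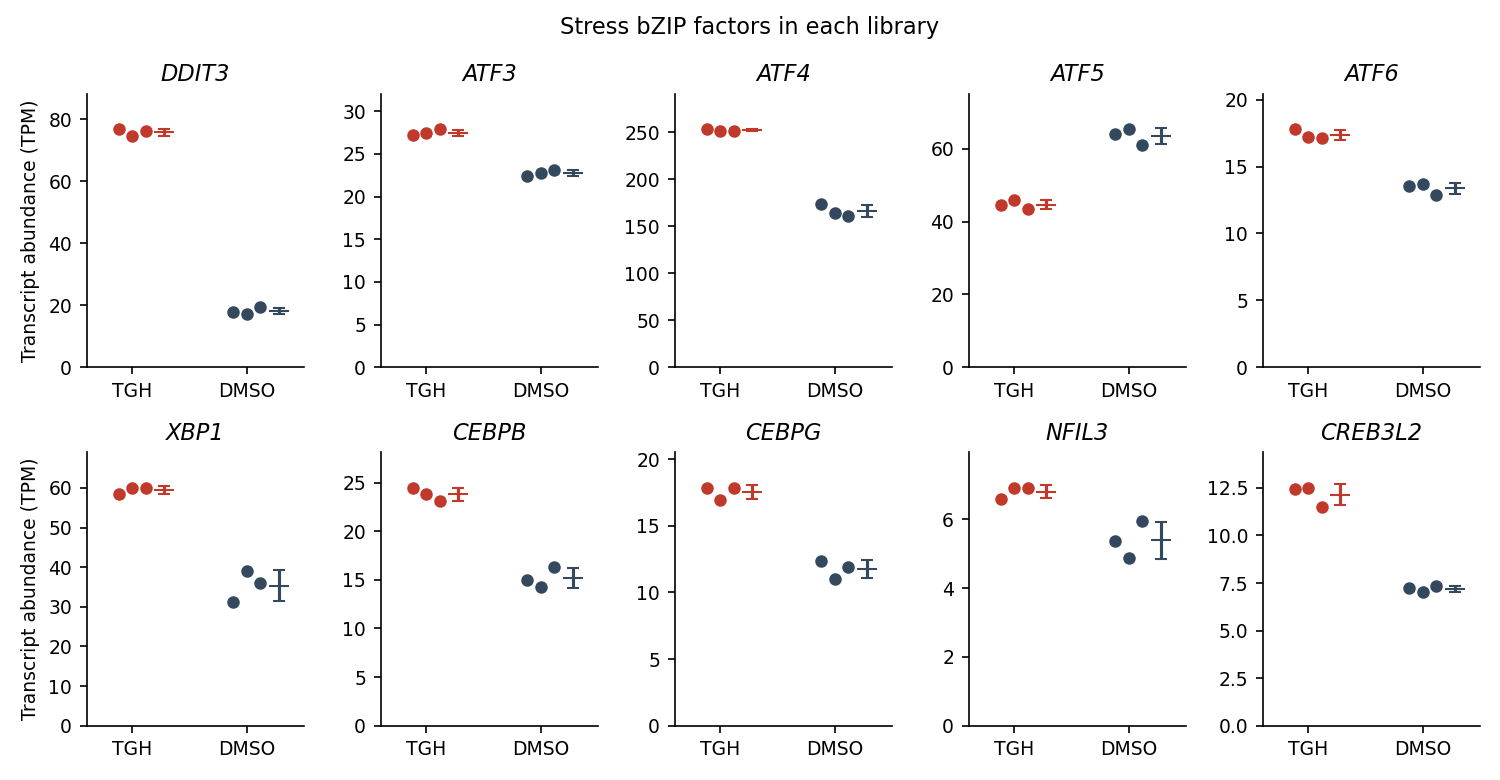
Abundance of the 10 stress bZIP transcripts in TPM (vertical axes start at 0) in each of 3 TGH and 3 DMSO libraries, with the mean and SD of each group as a bar beside the points. The groups do not overlap in any panel, and ATF5 is the one panel in which the TGH points lie below the DMSO points.

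DDIT3, which encodes the C/EBP homologous protein CHOP, a factor that dimerizes with other C/EBP proteins and is tied to cell death in prolonged ER stress, moved most. It had 76.9, 74.7 and 76.2 TPM in TGH replicates 1 to 3, against 17.7, 17.3 and 19.4 TPM in DMSO replicates 1 to 3. The TGH libraries were close to each other and all of them were far above the highest DMSO library. The difference was 2.01 on the log2(TPM + 1) scale (SE 0.044, adjusted p = 8.0e-07), and the ratio of mean TPM was 4.19. DDIT3 had the 40th largest rise of the 12018 genes, and 0.416% of genes differed by more in either direction.

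Part of the DDIT3 locus is shared with neighbours. In GENCODE release 29, which is on another build than the hg19 of the deposited values, 27.2% of the exon bases of DDIT3 overlap exons of MARS, a tRNA synthetase gene on the opposite strand, and 4.44% overlap exons of MBD6, also on the opposite strand. AC022506.1, a gene on the same strand, shares 8.03% of the exon bases of DDIT3. Strand cannot separate its reads from those of DDIT3, and AC022506.1 was not tested here. Each share was computed apart, so these shares may cover some of the same bases. The library kit keeps the strand, but whether the counting used it is not given in the sources used here, and without it reads of exons on opposite strands cannot be told apart either. MARS had 83.6 ± 2.05 TPM with TGH and 70.5 ± 1.76 TPM in DMSO (SD, n = 3 each), a difference of 0.24 (adjusted p = 0.00061), and MBD6 had 0.19 (adjusted p = 0.063). Their part in the DDIT3 value was not tested.

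ATF4, the factor that drives the amino acid response, was the most abundant of the 10 in every library. It had 253, 251 and 252 TPM with TGH, against 174, 164 and 161 TPM in DMSO. It rose by 0.60 (SE 0.030, adjusted p = 1.6e-05), a ratio of mean TPM of 1.52. The TGH libraries had a coefficient of variation of 0.378%, against 3.93% in DMSO. Over all genes tested the median was also smaller with TGH, at 3.445%, than in DMSO, at 5.43%. The DMSO libraries were unlike each other in genes listed at 0, with 3074, 3185 and 1530 in replicates 1 to 3. The part of this in the wider DMSO spread was not tested. ATF4 and XBP1 have processed pseudogenes, with which reads may be shared, so that their levels carry this uncertainty.

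ATF3, a stress-induced relative that can repress or activate transcription, had one of the smaller rises. Its levels were 27.2, 27.4 and 27.9 TPM with TGH, against 22.4, 22.7 and 23.1 TPM in DMSO. The gap between the groups was wider than the range within either. The difference was 0.26 (SE 0.028, adjusted p = 0.00032), and 34.7% of all genes tested differed by more in either direction.

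CEBPB and CEBPG are the C/EBP members. CEBPB encodes an activator that is also read into a short inhibitory form, and CEBPG encodes a short protein that pairs with other bZIP factors, ATF4 among them. CEBPB had 24.5, 23.8 and 23.1 TPM with TGH, against 14.9, 14.3 and 16.3 TPM in DMSO, and rose by 0.62 (SE 0.052, adjusted p = 0.00013). CEBPG had 17.8, 16.9 and 17.9 TPM with TGH, against 12.4, 11.002 and 11.9 TPM in DMSO, and rose by 0.54 (SE 0.049, adjusted p = 0.00017). Their TPM ratio to each other overlapped between the groups, with 1.36 ± 0.0574 CEBPB per CEBPG in TGH libraries and 1.29 ± 0.0799 in DMSO libraries (SD, n = 3 each). Exons of CEBPB overlap those of the antisense gene CEBPB-AS1 over 11.8% of their bases, and that gene was not tested here.

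ATF5, a close relative of ATF4 whose mRNA is likewise translated under stress, went the other way. It had 44.6, 45.9 and 43.4 TPM with TGH, against 64.0, 65.4 and 61.1 TPM in DMSO. All 3 TGH libraries were well below the lowest DMSO library, and the spread within each group was narrow. ATF5 fell by 0.50 (SE 0.035, adjusted p = 6.1e-05), a ratio of mean TPM of 0.703, which placed it 439th among falls. NUP62, a nuclear pore gene on the opposite strand, covers 21.2% of the exon bases of ATF5 in GENCODE 29 and had a similar level and direction. NUP62 had 48.5 ± 0.280 TPM with TGH and 63.2 ± 1.87 TPM in DMSO (SD, n = 3 each), a difference of -0.38 (adjusted p = 7.8e-05). The part of NUP62 reads in the ATF5 value was not tested.

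XBP1 and ATF6 belong to the branches of the unfolded protein response that are switched on by splicing and by cleavage. XBP1 had 58.4, 59.9 and 60.1 TPM with TGH, against 31.2, 39.0 and 35.9 TPM in DMSO. The DMSO libraries were spread more widely than for any other member (coefficient of variation 11.1%, against 1.58% with TGH), yet the highest of them was far below the TGH libraries. XBP1 rose by 0.74 (SE 0.075, adjusted p = 0.00027), and by 0.65 without DMSO replicate 1. ATF6 had 17.8, 17.2 and 17.1 TPM with TGH, against 13.5, 13.7 and 12.9 TPM in DMSO, and rose by 0.35 (SE 0.036, adjusted p = 0.00029). XBP1 per ATF6 was 3.42 ± 0.126 in TGH libraries and 2.65 ± 0.292 in DMSO libraries (SD, n = 3 each), without overlap.

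CREB3L2 encodes a membrane-bound ER factor that is cut like ATF6 and supports secretion, as shown in mouse cartilage. It had 12.4, 12.5 and 11.5 TPM with TGH, against 7.23, 7.02 and 7.33 TPM in DMSO. Here the coefficient of variation was larger in TGH libraries, at 4.70%, than in DMSO libraries, at 2.17%. This was the reverse of the other 9 members and of the medians over all genes tested. CREB3L2 rose by 0.68 (SE 0.044, adjusted p = 4.4e-05), a ratio of mean TPM of 1.69.

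NFIL3, a repressor known from circadian and immune gene control, was the scarcest member and had the weakest call. It had 6.59, 6.92 and 6.91 TPM with TGH, against 5.36, 4.86 and 5.95 TPM in DMSO. The highest DMSO library came close to the lowest TGH library. The difference was 0.29 (SE 0.067, adjusted p = 0.0100). With DMSO replicate 3 as the only control it was 0.17 and not called (adjusted p = 0.059), while under the other 15 settings its adjusted p ran from 0.0045 to 0.040. DMSO replicates 1 and 2 listed more genes at 0 (3074 and 3185) than the other 4 libraries (1342 to 1530).

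**Figure D2:**
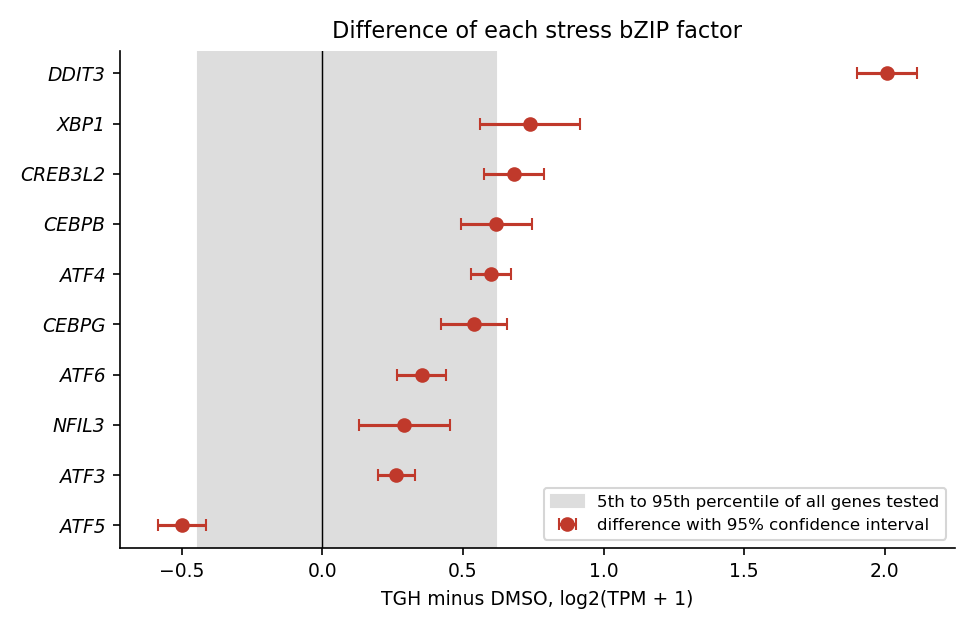
Difference between TGH and DMSO for each stress bZIP transcript on the log2(TPM + 1) scale, with 95% confidence intervals from limma, above a grey band from the 5th to the 95th percentile of all 12018 genes (-0.44 to 0.62). DDIT3 lies far outside the band at 2.01, the point of ATF5 lies just below it at -0.50, the other 8 lie between 0.26 and 0.74, and the intervals of these 9 reach into the band.

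Since TPM is scaled by length, levels of the 10 transcripts can be set side by side. In TGH libraries the order from high to low was ATF4, DDIT3, XBP1, ATF5, ATF3, CEBPB, CEBPG, ATF6, CREB3L2 and NFIL3. In DMSO libraries it was ATF4, ATF5, XBP1, ATF3, DDIT3, CEBPB, ATF6, CEBPG, CREB3L2 and NFIL3. Neighbours in either order did not overlap between libraries, except CEBPG and ATF6 with TGH, whose means were 17.5 and 17.4 TPM. DDIT3 stood 2nd with TGH and 5th in DMSO, and ATF5 stood 4th with TGH and 2nd in DMSO.

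Summed over the 10, the transcripts came to between 536 and 539 TPM in TGH libraries and between 355 and 362 TPM in DMSO libraries. ATF4 made up 46.9 ± 0.0675% of this sum with TGH and 46.3 ± 1.38% in DMSO (SD, n = 3 each), and the groups overlapped. The share of DDIT3 was 14.1 ± 0.185% with TGH and 5.06 ± 0.354% in DMSO, and that of ATF5 was 8.31 ± 0.229% with TGH and 17.7 ± 0.491% in DMSO. Set against ATF4, DDIT3 had a TPM ratio of 0.304, 0.297 and 0.303 in the TGH libraries and 0.102, 0.106 and 0.120 in the DMSO libraries, and ATF5 had 0.177 ± 0.00514 with TGH and 0.382 ± 0.0150 in DMSO. DDIT3 was also higher relative to its partner CEBPB, with 3.19 ± 0.0890 DDIT3 per CEBPB in TGH libraries and 1.20 ± 0.0162 in DMSO libraries. All are shares of mRNA in bulk samples, where fewer cells expressing a gene and less RNA per cell cannot be told apart.

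**Figure D3:**
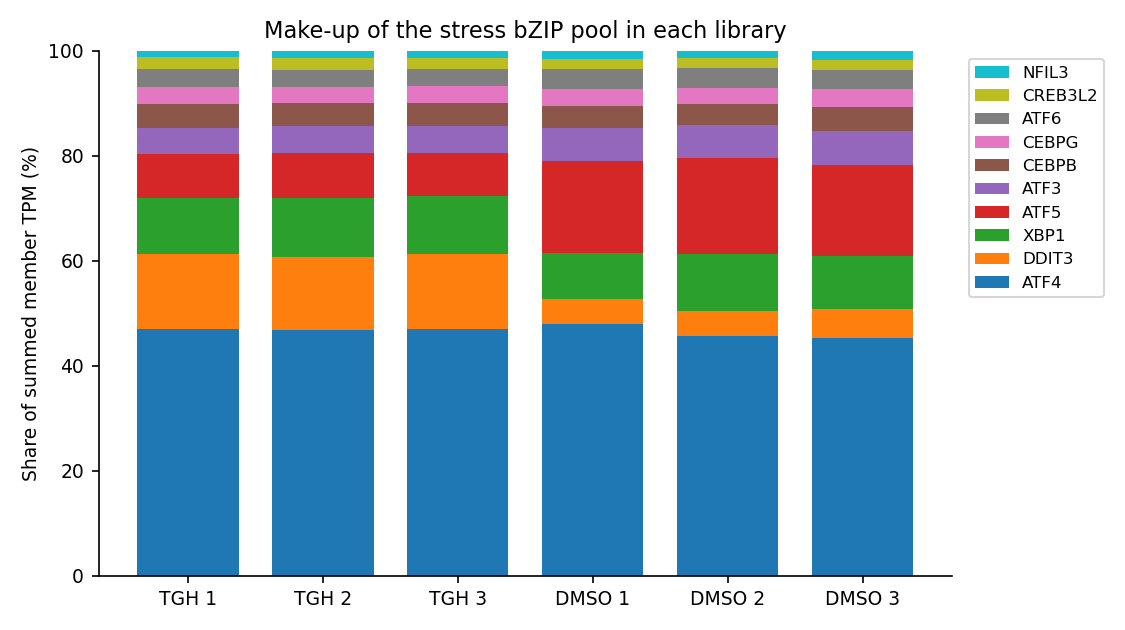
Share of each stress bZIP transcript in the summed TPM of the 10 (vertical axis, percent), 1 bar per library with the 3 TGH libraries on the left and the 3 DMSO libraries on the right. The ATF4 segment keeps a similar height in all 6 bars, the DDIT3 segment is larger in the TGH bars and the ATF5 segment is larger in the DMSO bars.

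More of the close relatives of these factors rose than fell. Beside the counts of this and the following lists, 28.9% of all genes tested were called higher and 26.3% lower. Of 20 further bZIP genes of the ATF, CREB, CREB3, C/EBP and BATF families, with JDP2, 14 passed the minimum, 8 rose, 2 fell and 4 were not called, with a median difference of 0.30. CREB3, an ER-anchored relative of CREB3L2, had 45.1 ± 1.35 TPM with TGH and 28.9 ± 2.03 TPM in DMSO (SD, n = 3 each) and rose by 0.63 (adjusted p = 0.00013). Further relatives are given here after their values were seen. CREB3L1 and CREB3L4, of the same ER-anchored family, rose by 0.44 and 0.35, although CREB3L1 was scarce, with 1.72 ± 0.189 TPM with TGH and 1.02 ± 0.284 TPM in DMSO. ATF6B, the paralog of ATF6, rose by only 0.10 (adjusted p = 0.042). The remaining genes that rose were JDP2 at 0.47, CREBZF at 0.44, ATF2 at 0.35 and CREM at 0.18. JDP2 was scarce too, with 1.41 ± 0.0825 TPM with TGH and 0.751 ± 0.221 TPM in DMSO. The 2 that fell were CREBL2 at -0.37 and BATF3 at -0.31, and CEBPD, at 0.31, was not called (adjusted p = 0.33), with overlapping libraries of 3.47 to 4.11 TPM with TGH and 1.49 to 3.99 TPM in DMSO. Without TGH replicate 2, TGH replicate 3 or DMSO replicate 2, or with DMSO replicate 3 as the only control, 1 of the 14 fell.

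The remaining bZIP families, FOS and JUN of AP-1, MAF, NRF, BACH and the PAR factors, showed no common direction. Of 22 measured, 14 passed the minimum, 4 rose, 3 fell and 7 were not called, and the median was -0.01. These counts were near the shares of all genes tested, 28.9% higher and 26.3% lower. FOSL1, a FOS-family subunit of AP-1 and the most abundant of them, fell by 0.28 (adjusted p = 0.00016), with 232 ± 5.69 TPM in TGH libraries and 283 ± 5.35 TPM in DMSO libraries. FOSL2 fell by 0.32 and NFE2L3 by 0.35, while MAFG, a small MAF protein, rose by 0.30. JUND, a JUN-family subunit of AP-1 named after its values were seen, had the largest difference of the 14. It rose by 0.61 (adjusted p = 0.0065), and its TGH libraries lay wholly above its DMSO libraries. BACH1 and NFE2L1, also named after their values were seen, rose by 0.27 and 0.10. NFE2L2, which encodes the oxidative stress factor NRF2 and is named after its values were seen, had -0.06 (adjusted p = 0.24). With DMSO replicate 3 as the only control, 5 of the 14 fell.

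Upstream of the factors, transcripts of the ER sensors PERK and IRE1 rose, and those of eIF2α regulators moved in both directions. Of 14 measured genes for sensors and processing, 7 rose, 4 fell and 3 were not called, with a median of 0.07. The 7 include PPP1R15A and NUPR1, which are also counted as targets of ATF4 and CHOP below and so are not only upstream. EIF2AK3, the ER kinase PERK, had 7.99 ± 0.0760 TPM with TGH and 4.77 ± 0.244 TPM in DMSO (SD, n = 3 each), a rise of 0.64 (adjusted p = 6.2e-05). ERN1, the sensor IRE1 that splices XBP1 mRNA, had 5.72 ± 0.198 TPM with TGH and 3.50 ± 0.471 TPM in DMSO, a rise of 0.59 (adjusted p = 0.0011). With an offset of 5 in place of 1 these rises were 0.41 and 0.34. PPP1R15A, also called GADD34, which brings a phosphatase to eIF2α, rose by 0.92, and NUPR1, a small stress-induced nuclear protein, rose by 1.76, with 61.6 ± 1.19 TPM in TGH libraries and 17.5 ± 1.53 TPM in DMSO libraries. Named after their values were seen, PPP1R15B, the relative of PPP1R15A, rose by 0.13 (adjusted p = 0.0091), the kinases EIF2AK2 and EIF2AK4 fell by 0.20 and 0.12, EIF2S1, the eIF2α subunit itself, fell by 0.23, and EIF2AK1 had 0.01 (adjusted p = 0.75). MBTPS1, the site-1 protease that cuts ATF6, had 0.02 (adjusted p = 0.54), and MBTPS2, the site-2 protease, fell by 0.16. With DMSO replicate 3 as the only control, 2 of the 14 fell.

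Known targets of the 3 branches were mostly higher. Among targets of ATF4 and CHOP, 28 of 32 tested rose, 1 fell and 3 were not called, with a median of 0.74. SLC3A2, a subunit of amino acid transporters, had 430 ± 7.37 TPM with TGH and 166 ± 2.22 TPM in DMSO (SD, n = 3 each) and rose by 1.37 (adjusted p = 1.8e-07). ASNS, asparagine synthetase, rose by 1.52, TRIB3, a pseudokinase that binds ATF4 and CHOP, by 1.29, and STC2, a secreted glycoprotein, by 1.12. CEBPB is a member of this list too, and PPP1R15A and NUPR1 stand in it as well as among the sensors. The genes of this list that were not called higher are named here after their values were seen. Links to cell death were not scored across the list, so these genes do not show how its death-linked genes moved as a set. BCL2L11, the death protein BIM, fell by 0.24 (adjusted p = 0.0077), and TNFRSF10B, the death receptor DR5, had -0.07 (adjusted p = 0.10). BBC3, the death protein PUMA, had 0.37 (adjusted p = 0.062) at 1.40 ± 0.324 TPM with TGH and 0.861 ± 0.244 TPM in DMSO. Though neither was called, the TGH libraries lay wholly above the DMSO libraries for BBC3 and wholly below them for TNFRSF10B. SLC7A5, an amino acid transporter, was not called either, with 0.02 (adjusted p = 0.47). BCL2L11 averaged under 5 TPM, and with DMSO replicate 3 as the only control 0 of the 32 fell.

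All 14 ATF6 targets rose, with a median of 1.40. PDIA4, a disulfide isomerase of the ER, had 487 ± 3.86 TPM with TGH and 141 ± 1.71 TPM in DMSO (SD, n = 3 each) and rose by 1.78. MANF, a small protein of the ER lumen, rose by 1.87, HSPA5, the chaperone BiP, by 1.66, and HSP90B1, also called GRP94, a folding chaperone of the ER lumen, by 1.51, each with an adjusted p of 1.1e-07 or less. The ATF6 mRNA itself rose by 0.35.

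Among XBP1 targets 25 of 26 rose and 1, KDELR2, was not called at 0.01 (adjusted p = 0.80), and the median was 0.47. DNAJB9, an ER co-chaperone, had 18.9 ± 0.745 TPM with TGH and 5.26 ± 0.592 TPM in DMSO (SD, n = 3 each) and rose by 1.67 (adjusted p = 1.1e-05). DNAJB11, another ER co-chaperone, rose by 1.12, EDEM1, which hands misfolded glycoproteins to degradation, by 0.93, and PDIA3, a disulfide isomerase for glycoproteins, by 0.91. The 3 target lists were drawn up with earlier results of these data known, and many of their genes are read by more than 1 branch.

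Transcripts of proteins that work with these factors moved in both directions. Of 12 partners and binding proteins, 2 rose, 7 fell and 3 were not called, with a median of -0.15. Of all genes tested, 28.9% were called higher and 26.3% lower. Both that rose, TRIB3 and SYVN1, an ER ubiquitin ligase with a rise of 0.92, also stand in a target list. NFYC, a subunit of the CCAAT-binding factor NF-Y that joins ATF6 at ER stress response elements, fell by 0.30 (adjusted p = 0.0025), with 18.9 ± 1.07 TPM in TGH libraries and 23.4 ± 0.931 TPM in DMSO libraries. Its partners NFYA and NFYB, named after their values were seen, fell by 0.18 and 0.20, and CREBBP, a coactivator of bZIP factors, fell by 0.23 (by 0.15 with an offset of 5). With DMSO replicate 3 as the only control, 4 of the 12 fell.

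**Figure D4:**
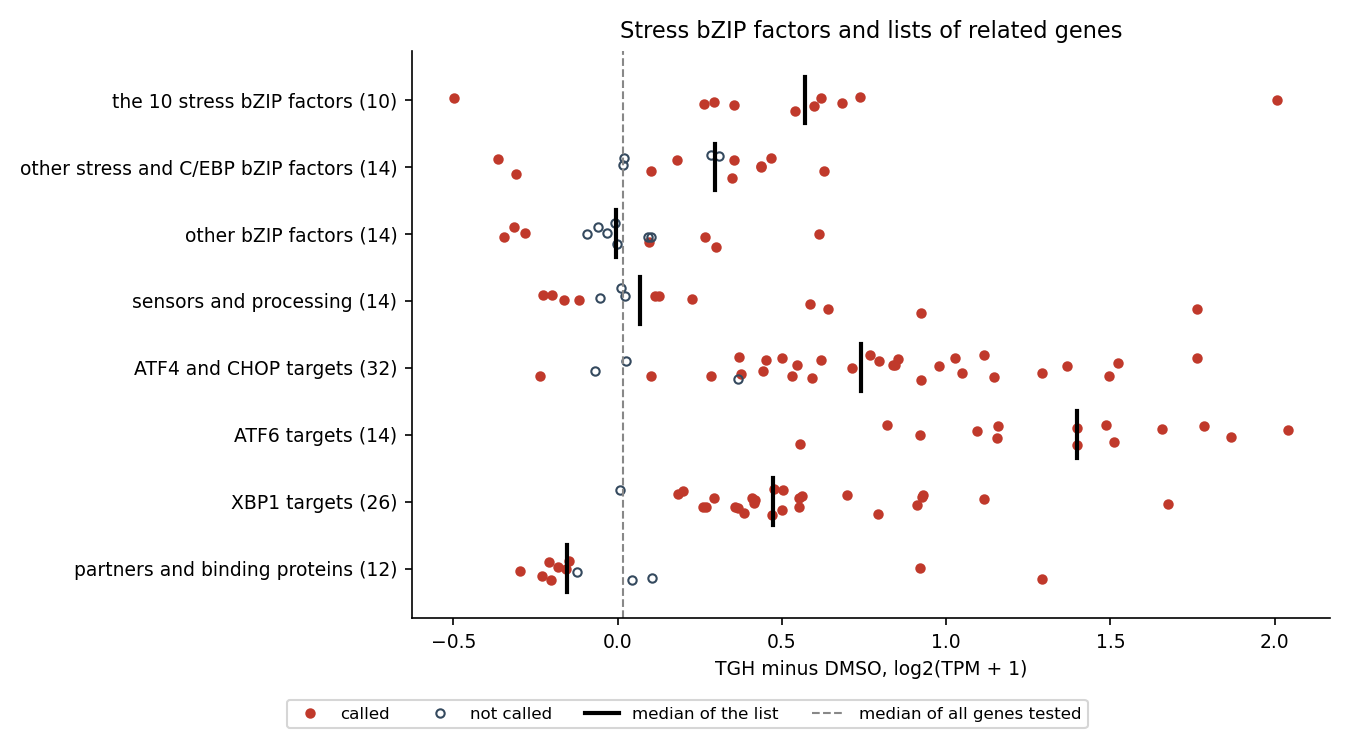
Difference between TGH and DMSO on the log2(TPM + 1) scale for each tested gene of 8 lists, 1 point per gene (filled where called, open where not called), with the number tested in parentheses, the list median as a bar and the median of all genes as a dashed line. ATF6 targets sit furthest to the right with a median of 1.40, and the partners and binding proteins sit to the left of 0 apart from a few genes.

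By the Euclidean distance of mean-centred log2 values over the 6 libraries, outside the 10 members, the genes most like DDIT3 were HERPUD1, MANF and CRELD1, at distances of 0.171, 0.195 and 0.242. HERPUD1, which serves ER-associated degradation, had 83.3 ± 2.07 TPM with TGH and 19.5 ± 1.47 TPM in DMSO (SD, n = 3 each). The genes most like ATF4 were AKAP12, DNASE1L1 and XPOT, at distances of 0.0473, 0.0476 and 0.0558. AKAP12, a scaffold for protein kinases, had 44.2 ± 0.696 TPM with TGH and 28.5 ± 0.821 TPM in DMSO. With 2 groups of 3, this measure is set mostly by the difference between the groups.

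Epithelial markers were high in every library, with 6 of 6 passing the minimum and sums of 1666 to 1686 TPM with TGH and 2012 to 2100.5 TPM in DMSO. Endothelial markers had 0 of 4 above the minimum, with sums of at most 0.598 TPM with TGH and 0.389 TPM in DMSO. Fibroblast markers had 1 of 6, with sums of 3.30 to 3.81 TPM with TGH and 3.70 to 4.83 TPM in DMSO. Immune markers also had 1 of 6, CD68, a lysosomal protein, and summed to 47.3 to 48.8 TPM with TGH and 20.8 to 22.3 TPM in DMSO, while PTPRC, which marks all leukocytes, was at most 0.129 TPM.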

How the data were processed

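RNA of PC-3 cells was sequenced in 3 TGH and 3 DMSO libraries after removal of ribosomal RNA, with a strand-keeping kit, per the labels' protocols. The authors deposited 1 table of log2(TPM + 1) values by gene symbol with a lowest value of 0, as an offset of 1 gives. The submitters' processing notes name the build hg19. Aligner, quantifier, annotation and use of strand: not given in the sources used here. Converted back, the TPM sum to 502380 to 518870 per library. Read depth is unknown, since TPM keeps none.

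The 12018 genes that averaged 1 TPM or more were compared with limma 3.58.1 in R 4.3.3 (moderated variances with a trend, two-sided, Benjamini-Hochberg adjustment, threshold 0.05). The step was tested on simulated data in which far fewer genes were changed than were called here. That test therefore does not show how the calls behave when so many genes differ. Low genes change more than differences in log2(TPM + 1) show, and no test compares a list with other genes. The members and lists were chosen with earlier results of these data known. Named genes are all members, called genes differing by at least 0.5 among close relatives and sensors, the 4 smallest p in each other list, and the 3 genes nearest to DDIT3 and to ATF4. Genes outside this rule are marked where they appear. Alternatives were offsets of 0.1 and 5, no filter or 5 TPM, median scaling, quantile normalization, other variance models, the replicate number as a block, and fewer libraries. Figures were drawn with matplotlib 3.10.9.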

Additional observations from a re-analysis of the deposited data

How the results depend on the processing

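Under 16 other settings, 159 of the 160 values of the 10 members kept direction and call. The exception was NFIL3 at 0.17 with DMSO replicate 3 as the only control, where the residual spread is that of the 3 TGH libraries. It was 0.19, and called, with an offset of 5. DDIT3 ranged from 1.81 with an offset of 5 to 2.06 with an offset of 0.1, and ATF5 from -0.53 to -0.44. All 463 values of the 29 other genes named by rule also kept direction and call, but with an offset of 5 EIF2AK3, ERN1 and CREBBP moved by over 1.5 times, to 0.41, 0.34 and -0.15. Counts of falling genes in short lists moved. Among the close bZIP relatives 1 fell with a minimum of 5 TPM and with DMSO replicate 3 as the only control, and 1 to 2 fell when single libraries were left out (1 without TGH replicate 2, TGH replicate 3 or DMSO replicate 2). With that single control 5 of the other bZIP factors, 2 of the sensors, 0 ATF4 and CHOP targets and 4 partners fell. For ATF4 and CHOP targets the number was also 0 with a minimum of 5 TPM and 2 after median scaling. The causes were not tested, apart from the fewer genes tested at 5 TPM. The replicate number as a block gave 3273 higher and 2958 lower genes, against 3479 and 3156 without it, with 9 members higher and 1 lower in both. Deviations of same-numbered libraries correlated at 0.00877, 0.0544 and 0.229 for numbers 1 to 3, not every library correlated best with its own number, and no label ties the numbers to a shared culture or day.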
